A study of Bos taurus with 12 samples.

Results

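Both spatial gradients of wall shear stress, pooled, were set against both uniform flows in cultured bovine aortic endothelial cells. Wall shear stress (WSS) is the drag of a moving fluid on the wall that contains it. The 6 arrays of the tested side were 3 of cells under a positive WSS gradient and 3 of cells under a negative one. The 6 arrays on the other side were 3 of cells under a uniform high WSS of 28.4 Pa and 3 of cells under a uniform baseline WSS of 3.5 Pa. These are all 12 of the 12 arrays of the study, chosen by their labels alone, and each of the 4 groups carried equal weight. All cells were aortic endothelium at passage 15, grown on glass coverslips for 5 days in DMEM with 10% serum, moved to flow medium with 5% serum, 1% antibiotic and 8% Dextran 70 for 24 h, and then kept under flow for 24 h. The local stress along the gradients is not given in the sources used here, so the comparison does not hold the level of stress constant. The gradient arrays and the uniform arrays have sample records in separate numbered blocks, so flow type and block cannot be told apart. Nothing states that replicates came from separate cultures, and p-values here reflect the spread among these arrays alone, which may be technical.

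Endothelial cells line blood vessels and read the force of flow through junction proteins, integrins, ion channels, G protein-coupled receptors and the actin skeleton. Steady laminar stress is known to raise KLF transcription factors, NOS3, the nitric oxide synthase of endothelium, and thrombomodulin (THBD), and to hold down adhesion molecules for leukocytes such as VCAM1. Where stress changes sharply along the vessel, as near branch points and the apex of a bifurcation, the cells meet a spatial gradient, and such sites are known for remodelling of the wall.

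Values are log2 signals of probe sets, the groups of short probes that read 1 transcript, and a difference is the mean of the gradient groups minus the mean of the uniform groups on that scale. The 24016 probe sets other than array controls were tested, 4726 of them with 1 gene symbol, for 3977 genes. The probe set with the highest mean signal stood for its gene. The median of an array ranged over 5.65 to 5.72, and precision is set by how few arrays there are. Of 16 endothelial markers listed, 11 were measured, and their summed log2 signal was 107 to 108 on gradient arrays and 103 to 107 on uniform arrays, with 107 on High WSS replicate 3. PECAM1, a junctional adhesion molecule of endothelium, lay between 11.82 and 12.25 on gradient arrays and between 11.61 and 12.22 on uniform arrays.

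Before the genes, the control probe sets were read, because some of them separate the arrays. Long transcripts have control probe sets near the 3′ end and near the 5′ end, and the 3′ minus 5′ difference measures how evenly the length of a transcript was copied and detected. For GAPDH, a glycolytic enzyme used as a control, it was 0.16 ± 0.12 on gradient arrays and 0.55 ± 0.23 on uniform arrays (SD, n = 6 each; exact two-sided permutation test, p = 0.0108, adjusted p = 0.026 over 3 control transcripts). For elongation factor EF1A it was -1.88 ± 0.24 on gradient arrays and -1.33 ± 0.37 on uniform arrays (exact permutation p = 0.0173, adjusted p = 0.026). The actin gene ACTB gave 1.00 ± 0.34 on gradient arrays and 1.23 ± 0.24 on uniform arrays, a difference that did not pass (exact permutation p = 0.188). The 3′ minus 5′ differences of GAPDH and EF1A were thus smaller, in the signed sense, on gradient arrays.

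The array also carries probe sets for dap, lys, phe and thr, bacterial transcripts that serve as poly-A spike-in controls. For dap the 3′ minus 5′ difference was 1.87 ± 0.16 on gradient arrays and 2.61 ± 0.37 on uniform arrays (SD, n = 6 each; exact permutation p = 0.00649, adjusted p = 0.0252 over the 7 added transcripts). For thr it was 2.18 ± 0.29 on gradient arrays and 3.58 ± 0.77 on uniform arrays (exact permutation p = 0.00866, adjusted p = 0.0252). The lys and phe spikes differed by -0.13 and 0.10 (exact permutation tests, adjusted p = 0.55 and 0.533). Cyclophilin, a folding enzyme of the cells, gave 0.97 ± 0.11 on gradient arrays and 1.39 ± 0.22 on uniform arrays (exact permutation p = 0.0108, adjusted p = 0.0252). The translation factor eIF-4E and the GST transcript differed by -0.45 and -0.10 (exact permutation tests, adjusted p = 0.0683 and 0.54). These 7 transcripts were chosen after the data had been seen. The differences of GAPDH, EF1A, cyclophilin, dap and thr therefore move with the flow type, and their part in the gene results below was not tested beyond the fits given with them.

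High WSS replicate 3, a uniform array by its label, stood with the gradient arrays in some of these controls and not in others. Its dap difference was 1.91, within the gradient range of 1.67 to 2.07, while the other 5 uniform arrays lay between 2.60 and 2.96. Its thr difference was 2.12, within the gradient range of 1.85 to 2.59, against 3.41 to 4.20 on the other 5. Its GAPDH difference was 0.089, against 0.04 to 0.34 on gradient arrays and 0.59 to 0.70 on the other 5 uniform arrays. Its EF1A difference of -2.03 and its cyclophilin difference of 0.94 were also within the gradient ranges, and outside those of the other 5. For eIF-4E it measured 3.24, near the mean of 3.18 on the other 5 uniform arrays, where the gradient mean was 2.74. For phe it measured 0.76, against means of 0.99 on gradient arrays and 0.92 on the other 5, and for lys 1.35, above every other array. For ACTB and GST its 1.14 and -0.23 lay where the ranges of both sides overlap. Without it the difference between flow types grew to -0.875 for dap and -1.70 for thr (adjusted p = 0.0101 for each, exact permutation test) and to -0.48 for GAPDH (adjusted p = 0.00649, exact permutation test).

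**Figure D1:**
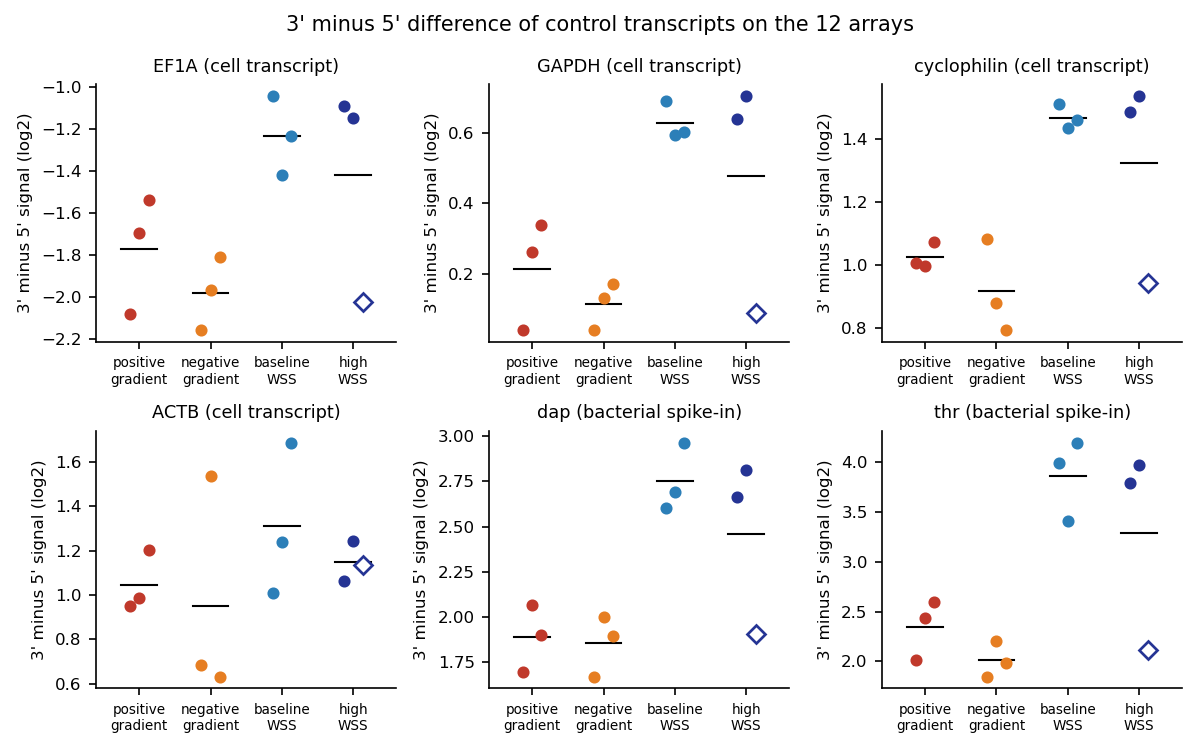
The 3′ minus 5′ log2 difference of control transcripts on each array, with positive and negative gradient to the left of baseline and high WSS; black lines are group means and the open diamond is High WSS replicate 3. For dap the gradient arrays lay at 1.67 to 2.07 and the 5 other uniform arrays at 2.60 to 2.96, with the diamond at 1.91.

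The same array stood with the gradients over the whole table. Its nearest array was positive gradient replicate 3, at a root mean square difference of 0.197, the smallest of the 66 pairs of arrays. Its mean root mean square difference was 0.325 to the gradient arrays and 0.494 to the other uniform arrays. Its signal was nearer to the gradient mean than to the mean of the other 5 uniform arrays at 17919 of 24016 probe sets (74.6%). For the other 5 uniform arrays the same share lay between 31.6% and 37.9%. High WSS replicate 2 also had a positive gradient array as its nearest, replicate 2, at 0.327. Its mean root mean square difference was 0.419 to the gradient arrays and 0.388 to the other uniform arrays.

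With all 12 arrays, limma called 979 of the 24016 probe sets at an adjusted p under 0.05 (4.08%), 598 higher under the gradients (2.49%) and 381 lower (1.59%). Among named genes 300 of 3977 were called (7.54%), 234 higher (5.88%) and 66 lower (1.66%). The called probe sets that were higher had a median difference of 0.60, and those that were lower had one of -0.53. The 2 gradients had the same sign against each uniform flow at 594 of the 598 higher and 367 of the 381 lower probe sets, a description of the called sets, since the comparisons share arrays. Between positive and negative gradient limma called 0 probe sets, and between high and baseline WSS it called 98 (0.408%), 27 higher (0.112%) and 71 lower (0.296%) at high WSS.

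The count at this threshold depended on single arrays. Without High WSS replicate 3 it was 5322 (22.2%), 2672 higher (11.1%) and 2650 lower (11%), and all 979 were among them; 1143 named genes were then called (28.7%), 557 higher (14%) and 586 lower (14.7%). Without negative gradient replicate 2, positive gradient replicate 1 or 2, baseline replicate 1 or 3, or high WSS replicate 1, limma called 0 probe sets, with 4687 to 5766 at an unadjusted p under 0.05. The smallest adjusted p of these fits was 0.0518 to 0.0689 (limma), just past the threshold of 0.05. Without negative gradient replicate 1 or high WSS replicate 2 it called 1. Without positive gradient replicate 3 it called 370, without negative gradient replicate 3 it called 859, and without baseline replicate 2 it called 879. With all arrays 6396 probe sets had an unadjusted p under 0.05, and the smallest adjusted p was 0.0103.

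**Figure D2:**
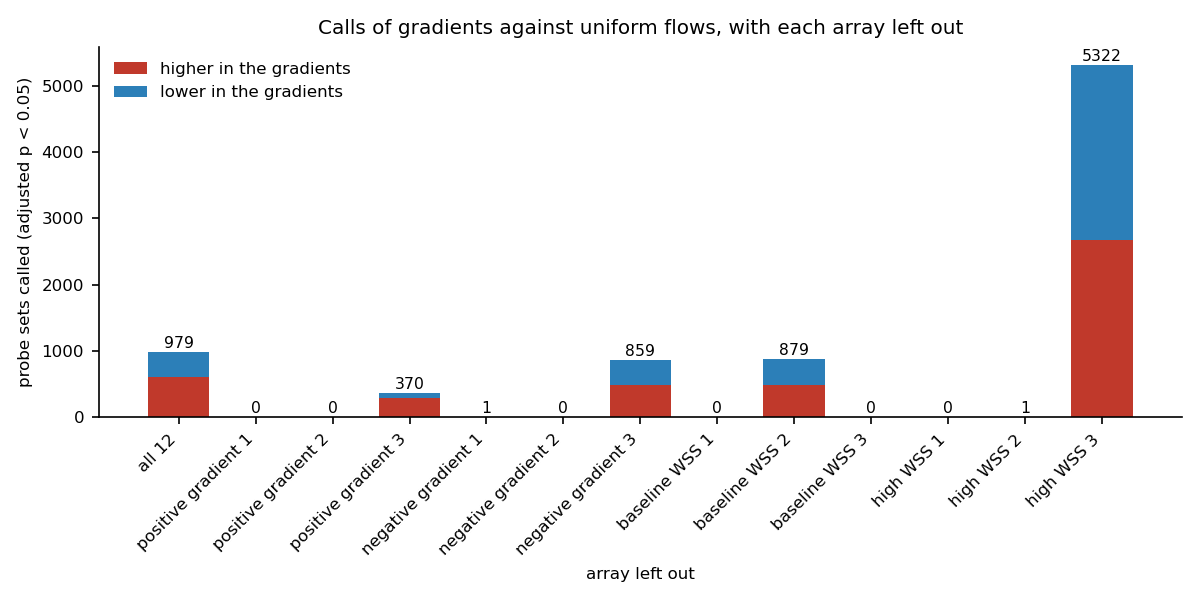
Number of probe sets called higher and lower under the gradients when each array in turn was left out of the fit, beside the count with all 12 arrays. All 12 arrays gave 979, and leaving out High WSS replicate 3 gave 5322, while 6 of the other arrays gave 0.

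High WSS replicate 3 took no part in choosing the 5322 probe sets called without it, so its place on them could be read separately. At 4886 of them (91.8%) it lay nearer to the gradient mean than to the mean of the other 5 uniform arrays. On a scale with the other 5 at 0 and the gradients at 1 its median position was 1.08. The share was 92.7% where gradients were higher and 90.9% where they were lower. Its signal was within the range of the 6 gradient arrays at 3895 of the 5322 (73.2%), as at 73.8% of all tested probe sets. It was within the range of the other 5 uniform arrays at 639 (12%), where 45% of all tested were. When only the 6 gradient arrays and High WSS replicate 3 were fitted, limma called 0 probe sets, with 786 at an unadjusted p under 0.05 and a smallest adjusted p of 0.999. That fit has 1 uniform array, which is taken to vary like the gradient groups.

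**Figure D3:**
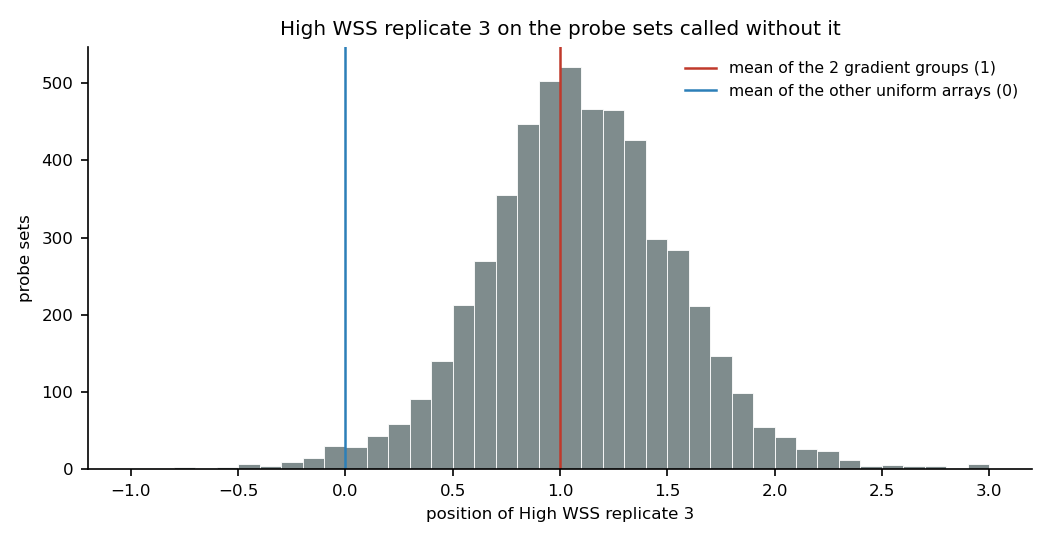
Position of High WSS replicate 3 at each of the 5322 probe sets called without it, where 0 is the mean of the other 5 uniform arrays and 1 the mean of the 6 gradient arrays. In all 3965 probe sets lay between 0.5 and 1.5, 436 below 0.5 and 921 above 1.5.

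The fit was also run with a control difference as a covariate. With the GAPDH difference in the model limma called 0 probe sets, with 366 at an unadjusted p under 0.05, and with the EF1A difference 0, with 683. With the dap difference, a covariate added after the data had been seen, it called 0, with 346 at an unadjusted p under 0.05. The covariates run with the flow type, as the values above show, and how much of the flow difference these fits can still detect was not measured.

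Complete separation of the arrays was rare. All 6 gradient arrays lay above all 6 uniform arrays at 154 probe sets (0.641%) and below them at another 154 (0.641%). Among the called probe sets 81 of the 598 higher and 80 of the 381 lower were so separated. Without High WSS replicate 3 the 6 gradient arrays lay above the other 5 at 1697 probe sets (7.07%) and below them at 1357 (5.65%). Of the named genes 37 lay above (0.93%) and 13 below (0.327%) on all 12 arrays, and without that array 399 above (10%) and 333 below (8.37%). The named genes that were both called and separated on all 12 arrays numbered 25 higher and 9 lower. The 14 higher ones with the largest differences and all 9 lower ones are described next, and the other 11 higher ones differed by 0.33 to 0.47.

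The separated gene with the largest difference was SLC3A2, the heavy chain that carries amino acid transporters to the membrane and binds integrins. Its signal ran from 8.73 through a median of 9.21 to 9.39 on gradient arrays, and from 7.76 through 7.98 to 8.71 on uniform arrays. The difference was 1.03 (SE 0.15, adjusted p = 0.0244), and the highest uniform array was High WSS replicate 3, just below the lowest gradient array. LPCAT3, which loads polyunsaturated fatty acids onto phospholipids, ran from 7.45 through 7.74 to 7.80 on gradient arrays and from 6.28 through 6.81 to 7.41 on uniform arrays, a difference of 0.86 (SE 0.12, adjusted p = 0.0244). Here too the uniform array nearest to the gradients was High WSS replicate 3, at 7.41, while the other 5 reached at most 6.89.

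Among the other separated genes that rose were 2 with a place in endothelial membranes. CAVIN3, a coat protein of caveolae, rose by 0.64 and SLC29A1, a transporter that takes up adenosine, by 0.58. FLNA, the actin crosslinker that ties the skeleton to integrins, rose by 0.53, with 9.209 to 9.49 on gradient arrays, 8.67 to 8.76 on the other 5 uniform arrays and 9.205 on High WSS replicate 3. RAB5B, a GTPase of early endosomes, rose by 0.53, and PMEPA1, an inhibitor of SMAD signalling, by 0.54. The remaining genes of these 14 were STK25, a kinase of cell polarity (0.66), ASCC1, a subunit of an alkylation repair complex (0.59), USP21, a deubiquitinase (0.57), SELENOM, a selenoprotein of the endoplasmic reticulum (0.57), LSM12, an RNA-binding protein (0.55), TRIM28, a co-repressor of zinc finger proteins (0.52) and TRIR, a ribonuclease (0.47). For STK25, ASCC1, USP21, CAVIN3, RAB5B, SELENOM, LSM12, TRIM28 and TRIR the highest uniform array was High WSS replicate 3, still below every gradient array.

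For SLC29A1 and PMEPA1, High WSS replicate 3 lay among the other uniform arrays. SLC29A1 measured 7.07 on it, against 7.36 to 7.66 on gradient arrays, inside the 6.67 to 7.13 of the other 5 uniform arrays. PMEPA1 measured 7.08 on it, with 7.23 to 7.80 on gradient arrays and 6.58 to 7.22 on the other 5. With the 7-array fit the gradient mean was above it by 0.42 for SLC29A1 and by 0.41 for PMEPA1.

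**Figure D4:**
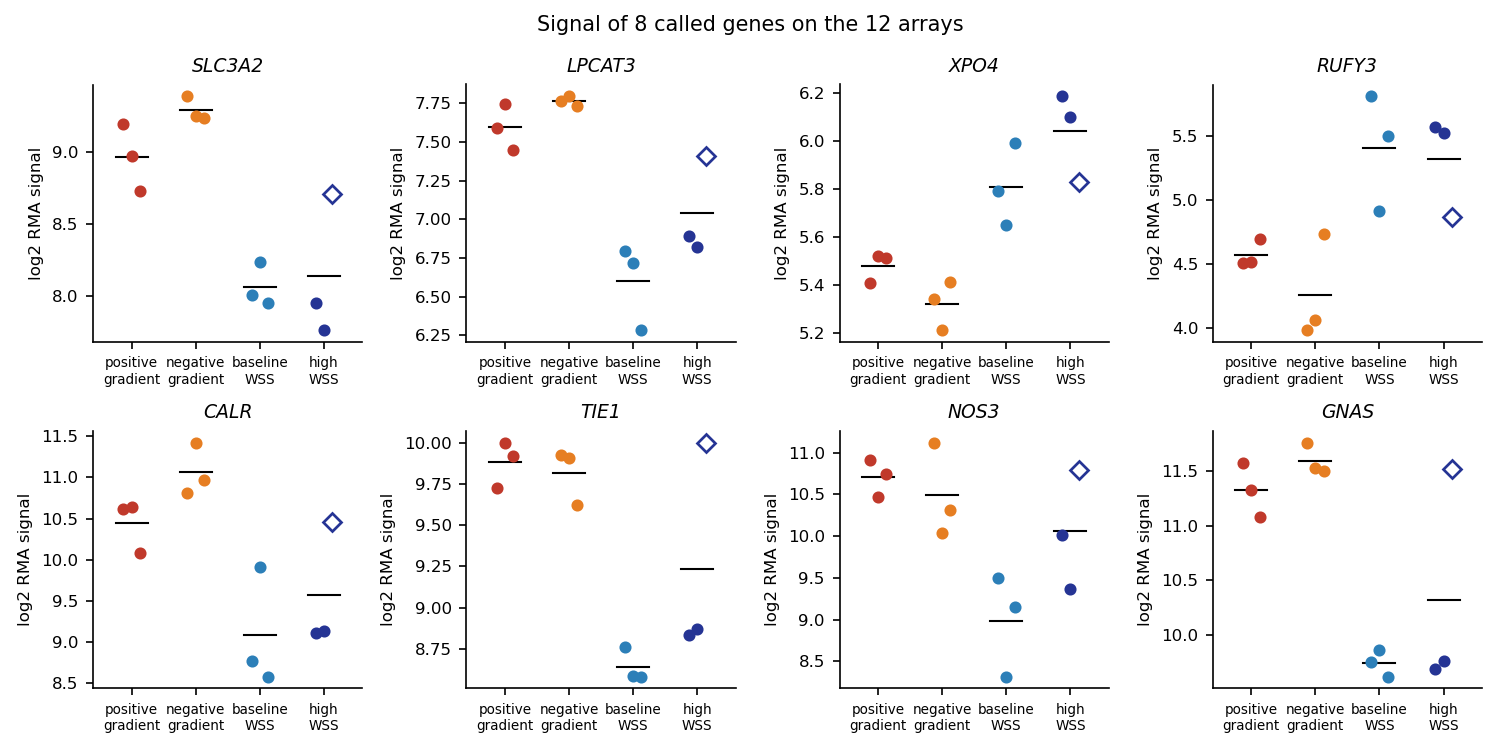
Log2 signal of genes on each array, with positive and negative gradient to the left of baseline and high WSS; black lines are group means and the open diamond is High WSS replicate 3. For TIE1 and GNAS the diamond lay at 10.00 and 11.52, far above the other 5 uniform arrays, and for XPO4 it lay among them at 5.83.

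The 9 separated genes that fell were led by RUFY3, an adaptor of endosomes and lysosomes. RUFY3 ran from 3.98 through 4.51 to 4.73 on gradient arrays and from 4.87 through 5.52 to 5.82 on uniform arrays, a difference of -0.95 (SE 0.18, adjusted p = 0.0273), at a low signal. XPO4, a nuclear transport receptor, ran from 5.21 through 5.41 to 5.52 on gradient arrays and from 5.65 through 5.91 to 6.18 on uniform arrays, a difference of -0.52 (SE 0.10, adjusted p = 0.0256). High WSS replicate 3 lay among the other uniform arrays for XPO4, at 5.83, and was the lowest uniform array for RUFY3, at 4.87. The others were KLHL23, a kelch protein (-0.57), CDK13, a kinase of RNA polymerase II (-0.47), KDSR, an enzyme of sphingolipid synthesis (-0.45), TBC1D12, of the family of Rab inactivators (-0.43), LMBR1, a membrane protein (-0.41), FBXO33, a substrate receptor of ubiquitin ligases (-0.38) and CASK, a junctional scaffold (-0.37).

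Of the 11 measured endothelial markers 3 rose, against 5.88% of named genes, and 0 fell. TIE1, a receptor tyrosine kinase of endothelium in the angiopoietin pathway, ran from 9.62 through 9.91 to 10.00 on gradient arrays and from 8.58 to 8.87 on 5 uniform arrays, with 10.00 on High WSS replicate 3. The difference over all 12 arrays was 0.91 (SE 0.17, adjusted p = 0.0273), and it was 1.10 without that array and -0.15 against that array alone. EGFL7, a secreted protein of endothelium, rose by 0.65 and had the same layout, at 9.47 on High WSS replicate 3 and 8.53 to 8.78 on the other 5 uniform arrays. ENG, a co-receptor for TGF-beta and BMP ligands, had another layout. It ran from 10.69 through 10.82 to 10.89 on gradient arrays and from 10.24 through 10.41 to 10.59 on uniform arrays, where High WSS replicate 3 measured 10.36, and it rose by 0.39 (SE 0.09, adjusted p = 0.0357).

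Of 15 measured genes of the laminar-flow response 2 rose (13.3%, against 5.88% of named genes) and 0 fell, with a list median of 0.19 against -0.05 over all named genes. NOS3 ran from 10.03 through 10.61 to 11.12 on gradient arrays and from 8.32 to 10.01 on 5 uniform arrays, with 10.80 on High WSS replicate 3. Its difference was 1.07 (SE 0.26, adjusted p = 0.0433), 1.26 without that array and -0.20 against that array alone. NOS3 averaged 1.07 higher at high than at baseline WSS, which was not called. PTGDS, the enzyme that makes prostaglandin D, rose by 0.42, but not against each uniform flow. It lay at 10.07 to 10.40 under the positive and 10.57 to 10.87 under the negative gradient, against 10.17 to 10.33 at baseline and 9.65 to 9.96 at high WSS. The positive gradient mean minus the baseline mean was -0.056, so these groups overlapped. KLF4, a transcription factor induced by laminar stress, differed by 0.19 (SE 0.26, adjusted p = 0.673) and THBD by -0.20 (adjusted p = 0.263), and neither was called.

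The vasoactive list of 13 measured genes held 2 that rose (15.4%, against 5.88% of named genes) and 0 that fell, NOS3 again and P2RY2, the receptor through which endothelium responds to ATP. P2RY2 rose by 0.64, with 6.92 to 7.33 on gradient arrays, 5.89 to 6.76 on the other 5 uniform arrays and 7.54 on High WSS replicate 3. It averaged 0.91 higher at high than at baseline WSS, which was not called. Its mean exceeded the high WSS mean by 0.24 under the positive and by 0.14 under the negative gradient. EDN1, which encodes the vasoconstrictor endothelin, was bright on every array, at 12.40 to 13.05 on gradient arrays and 12.38 to 13.02 on uniform arrays, and its difference was -0.001 (SE 0.12).

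Of the 22 measured genes of leukocyte recruitment and NF-kB 0 were called with all arrays, where 7.54% of named genes were. Without High WSS replicate 3 also 0 were called, where 28.7% of named genes were. With the replicate number added to the fit 1 of the 22 rose, where 471 of 3977 named genes rose. VCAM1 spread over 4.01 to 10.33 on gradient arrays and 4.25 to 10.24 on uniform arrays, and CCL2, a chemokine for monocytes, over 3.96 to 11.59 on gradient arrays and 5.02 to 11.60 on uniform arrays. Their differences were -0.38 (SE 1.21) and -0.31 (SE 1.33). The arrays numbered 2 were the high ones in all 4 groups. VCAM1 lay at 8.73 to 10.33 on them and at 4.01 to 6.25 on the other arrays, and CCL2 at 9.97 to 11.60 on them and 3.96 to 8.22 on the others.

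Genes of the actin skeleton and of SRF, the transcription factor of contractile genes, had one of the higher shares of calls. Of 32 measured 8 rose (25%, against 5.88% of named genes) and 0 fell. A positive difference was seen in 26 of the 32, against 1705 of 3977 named genes. The list median was 0.28 against -0.05 over all named genes. With High WSS replicate 3 left out, 16 rose (14% of named genes then did) and 0 fell, with a median of 0.35, and against that array alone the median was 0.09, where that of all named genes was 0.08. The 8 were CAPZB, the capping protein of filament ends (0.65), CFL1, which severs filaments, CNN3, a calponin, FLNA (0.53), MSN, the linker moesin, PFN1, which feeds actin monomers to filaments (0.56), RAC1, the GTPase of lamellipodia, and TAGLN2, a transgelin (0.71). PFN1 lay at 11.75 to 12.38 on gradient arrays and 11.29 to 11.44 on 5 uniform arrays, with 11.82 on High WSS replicate 3. TAGLN2 lay at 12.49 to 12.85 on gradient arrays and 11.46 to 11.96 on 5 uniform arrays, with 12.64 on that array, so both genes placed it inside the gradient range.

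Of 23 measured junction and adhesion genes 5 rose (21.7%, against 5.88% of named genes) and 0 fell (against 1.66%), with a list median of 0.20. Leaving out High WSS replicate 3, 10 rose and 1 fell, where 14% of named genes rose and 14.7% fell. NECTIN2, an adhesion molecule of cell junctions, rose by 1.05, with 6.84 to 7.58 on gradient arrays, 5.75 to 6.56 on 5 uniform arrays and 7.05 on High WSS replicate 3. ITGA5, the fibronectin-binding integrin chain, rose by 0.55, ZYX, a sensor of tension at focal adhesions, by 0.45 and ILK, a scaffold that links integrins to actin, by 0.43. ITGA5 also averaged 0.65 higher at high than at baseline WSS, which was not called. Its mean exceeded the high WSS mean by 0.39 under the positive and by 0.063 under the negative gradient. F11R, a junctional adhesion molecule, was the other member called.

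Matrix genes as a list lay near all named genes. Of 34 measured 2 rose (5.88%, against 5.88% of named genes) and 0 fell (against 1.66%). The list median was -0.053 against -0.046 over all named genes. SPARC, a matrix glycoprotein, rose by 0.57 and EMILIN1, an elastic fibre protein, by 0.65. Of 24 proteases and inhibitors 3 rose (12.5%, against 5.88% of named genes) and 0 fell. TIMP1, an inhibitor of metalloproteinases, rose by 0.73 and CTSD, a lysosomal protease, by 0.55, each with High WSS replicate 3 inside the gradient range. MMP2, a gelatinase, rose by 0.41, with 10.38 to 10.74 on gradient arrays and 9.88 to 10.43 on uniform arrays, with High WSS replicate 3 at 10.235 and baseline replicate 2, the highest uniform array, inside the gradient range.

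Of 18 TGF-beta and BMP genes 3 rose (16.7%, against 5.88% of named genes) and 0 fell, ENG, PMEPA1 and ACVR1, a BMP receptor that rose by 0.62 (6.78 to 7.42 on gradient arrays, 6.47 to 6.87 on uniform arrays). For ACVR1 the 6.87 was High WSS replicate 3, inside the gradient range, and the other uniform arrays reached at most 6.72. Of 19 mechanosensing genes 1 rose and 1 fell (10.5% called, against 7.54% of named genes), and both encode subunits of G proteins. GNAS, the stimulatory alpha subunit, ran from 11.08 through 11.51 to 11.76 on gradient arrays and from 9.62 to 9.87 on 5 uniform arrays, with 11.52 on High WSS replicate 3. Its difference was 1.42 (SE 0.26, adjusted p = 0.0245), 1.72 without that array and -0.06 against it. GNB4, a beta subunit, fell by 0.94 (SE 0.17, adjusted p = 0.0266), with 6.23 to 7.34 on gradient arrays and 7.02 to 8.09 on uniform arrays. For GNB4 the 7.02 was High WSS replicate 3, inside the gradient range, and the lowest of the other uniform arrays measured 7.45. The 10 Notch genes and the 7 YAP targets had 0 calls each, with limma, where 7.54% of named genes were called. The 16 angiogenesis genes had 1 higher (6.25%, against 5.88% of named genes) and 0 lower. With the replicate number added to the fit 1 Notch gene fell, NR2F1 (limma, adjusted p = 0.0381), where 293 of 3977 named genes fell.

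Proliferation lists had 0 calls with all arrays, where 7.54% of named genes were called. Of 37 genes of G1/S and DNA replication, with a list median of 0.05, 4 rose and 1 fell without High WSS replicate 3, where 28.7% of named genes were called. CCND1, the cyclin that starts G1, differed by 1.26 (SE 0.35, adjusted p = 0.0593) with all arrays and by 1.596 (adjusted p = 0.00319) without High WSS replicate 3. It measured 8.45 to 10.08 on gradient arrays and 7.08 to 8.16 on 5 uniform arrays, with 10.07 on High WSS replicate 3. Of 32 genes of G2/M and mitosis limma called 0 with or without that array. With the replicate number added to the fit 1 of the 32 rose, CDC20 (limma, adjusted p = 0.0415). Of the 37 genes of G1/S and DNA replication 4 rose and 1 fell in that fit. Of 3977 named genes 471 rose and 293 fell in it. The 13 growth arrest and 14 apoptosis genes also had 0 calls with all arrays.

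CALR, the calcium-binding chaperone of the endoplasmic reticulum, ran from 10.09 through 10.72 to 11.42 on gradient arrays and from 8.58 through 9.13 to 10.46 on uniform arrays, a difference of 1.43 (SE 0.27, adjusted p = 0.0272). The 10.46 was High WSS replicate 3, inside the gradient range, and the other uniform arrays reached at most 9.91. Against that array alone the difference was 0.30. CALR and SLC3A2 were the members of the unfolded protein list that were called. Of its 23 genes 2 were higher (8.7%, against 5.88% of named genes) and 0 lower, with a list median of -0.02. Of 33 lysosome and autophagy genes 3 rose (9.09%, against 5.88% of named genes) and 0 fell, CTSA, a protective protein of lysosomal hydrolases (1.08), ATP6V0D1, a subunit of the proton pump (0.59) and CTSD. Of 89 secretory pathway genes 8 rose (8.99%, against 5.88% of named genes) and 0 fell (against 1.66%). The list median was 0.03 against -0.046 over all named genes. Among these AP3S2, an adaptor of lysosome-bound vesicles, rose by 0.89 and TMED1, a cargo receptor, by 0.66.

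Of 71 respiratory chain genes 3 rose (4.23%, against 5.88% of named genes) and 0 fell. A positive difference was seen in 51 of the 71, against 1705 of 3977 named genes, and the list median was 0.06 against -0.046. UQCRC1, a core protein of complex III, rose by 0.85, with 9.92 to 10.49 on gradient arrays, 8.89 to 9.32 on 5 uniform arrays and 10.24 on High WSS replicate 3. NDUFV1, of complex I, rose by 0.79. Of 25 glycolysis genes 2 rose (8%, against 5.88% of named genes) and 0 fell, with a list median of -0.003. They were PKM, which encodes pyruvate kinase (0.68), and PGAM1, a mutase (0.55). PSMC4, an ATPase of the proteasome, rose by 0.90, the single call among 28 proteasome genes (3.57%, against 5.88% of named genes higher). Of 80 splicing and RNA-binding genes 8 rose and 3 fell (13.8% called, against 7.54% of named genes), among them PRPF31, a splicing factor (0.97), and HNRNPL, which regulates exon choice (0.70).

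The large families had calls in both directions, to be read against 5.88% of named genes higher and 1.66% lower. Of 64 solute carriers 8 rose and 2 fell, and their median was -0.09. Beside SLC3A2 and SLC29A1, SLC39A3, a zinc importer, rose by 0.87 and SLC25A6, which exchanges ADP for ATP across the mitochondrial membrane, by 0.74. Of 44 zinc finger genes 2 rose and 3 fell, and 7 had a positive difference, against 1705 of 3977 named genes. Their median was -0.29, against -0.046. Without High WSS replicate 3, 5 of the 44 rose and 22 fell, where 14.7% of named genes fell. The members that rose were ZFPL1, a protein of the Golgi (0.92), and ZNF207, which acts in spindle assembly (0.90). ZNF292 fell by 0.84 and ZBTB44, a transcription repressor, by 0.82. ZNF292 lay at 5.57 to 6.78 on gradient arrays and 7.25 to 7.72 on 5 uniform arrays, with 6.45 on High WSS replicate 3. Of 74 ubiquitin genes 7 rose and 2 fell with all arrays, and without that array 9 rose and 23 fell, where 14% of named genes rose and 14.7% fell. Of 20 aminoacyl-tRNA synthetases 1 fell, HARS2, and 3 had a positive difference, where 1705 of 3977 named genes had one. In 41 genes matched as ribosomal 1 fell, RPS6KB1, which is a kinase and not a ribosomal protein.

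Markers of other cell types were few on this array. Both measured smooth muscle and pericyte markers stayed uncalled with all arrays, and their summed log2 signal was 14 to 17.1 on gradient arrays and 13.4 to 15.1 on uniform arrays. TAGLN, a contractile protein, differed by 0.67 (adjusted p = 0.122) and, without High WSS replicate 3, by 0.86 (adjusted p = 0.0226). Of 4 fibroblast markers 1 fell, THY1, by 0.92, with 5.94 to 6.44 on gradient arrays, 7.05 to 7.63 on 5 uniform arrays and 6.07 on High WSS replicate 3. The summed signal of the 4 was 33.2 to 37.1 on gradient arrays and 34.9 to 38.1 on uniform arrays. CD14, the single leukocyte marker measured, lay at 4.18 to 7.12 on gradient arrays and 3.98 to 7.99 on uniform arrays, and no epithelial marker was measured. Fewer cells of a type and less RNA per cell cannot be told apart in such bulk samples, and the part of these markers in the results was not tested.

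Several genes have more than 1 probe set, which allows the flow difference to be compared within a gene. In 637 genes there were 749 probe sets dimmer than the brightest of their gene. Of the 749, limma called 115 (15.4%), 99 higher and 16 lower, while it called the brightest probe set beside 45 of them (6.01%). Both were called in 25, always with the same sign. The difference between the dimmer and the brightest probe set of the gene itself changed with flow type in 229 of 749 (30.6%), 184 higher at the dimmer probe set and 45 lower. Without High WSS replicate 3 it did so in 317 (42.3%), and that array lay nearer the gradient mean in 286 of these. This comparison was added after the data had been seen. Its calls were adjusted over the 749 pairs and those of single probe sets over 24016, so these shares are not at the same threshold.

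The clearest of these genes were chosen after their values were seen. JUN, a subunit of the AP-1 factor, differed by 1.57 at its dimmer probe set (SE 0.28, adjusted p = 0.025) and by 0.17 at its brightest. At the dimmer one the signal lay at 7.85 to 8.23 on gradient arrays and 6.003 to 6.287 on 5 uniform arrays, with 8.32 on High WSS replicate 3. SQSTM1, an autophagy receptor, differed by 1.84 and 0.08, PSAP, the precursor of lysosomal saposins, by 1.51 and -0.07, and RHOB, a small GTPase of endosomes, by 1.44 and 0.23, at the dimmer and the brightest probe set in that order. TLN1, which activates integrins, went the other way, with -0.89 at the dimmer and 0.38 at the brightest. GNAS differed by 1.42 at its brightest probe set and by -0.29 at the other. In these chosen genes the difference varied with the probe set. Among the genes called higher, 34 of 39 other probe sets had the same sign, 24 were called in the same direction and 0 in the opposite one. Among those called lower, 5 of 6 had the same sign, and 1 was called. Which part of a transcript each probe set reads was not looked up.

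**Figure D5:**
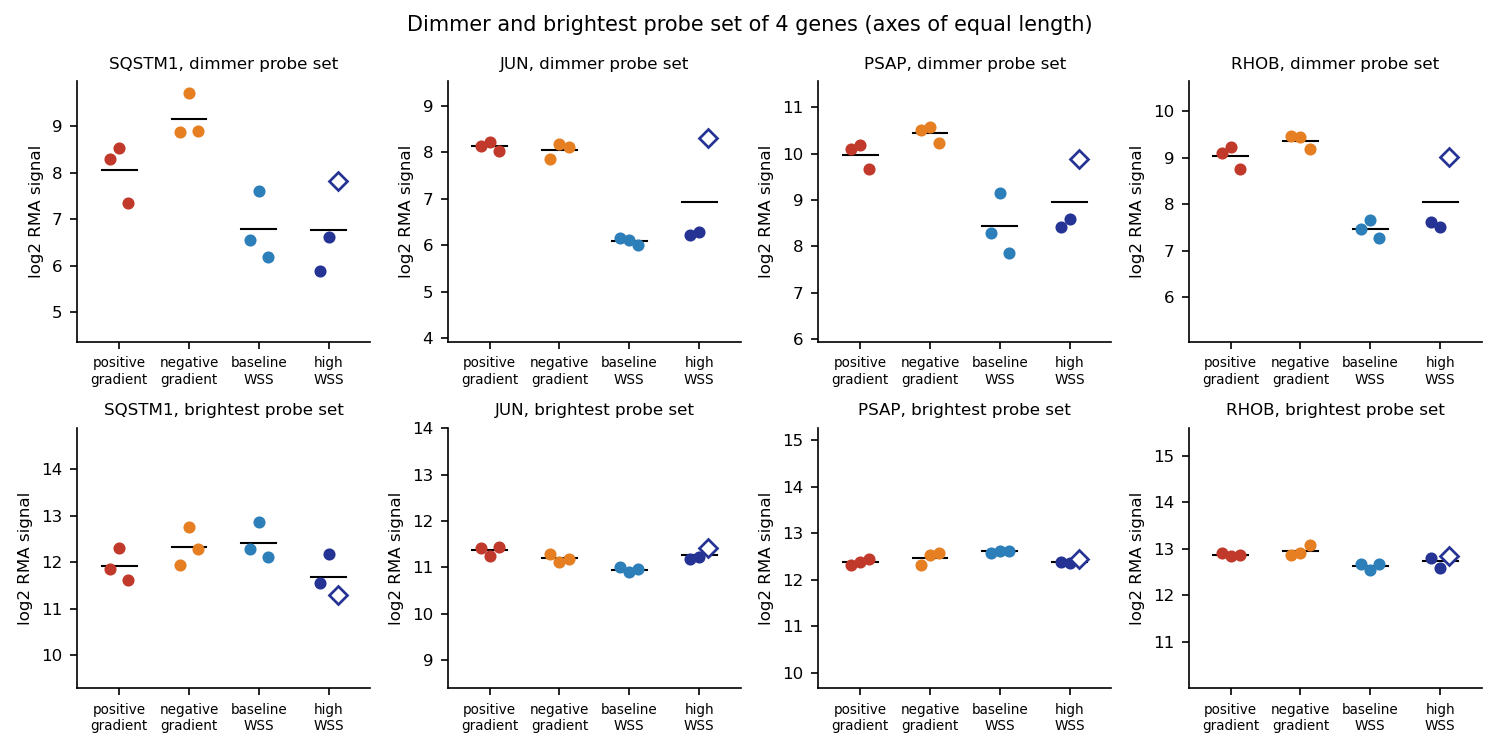
Log2 signal on each array at the dimmer (top) and the brightest (bottom) probe set of SQSTM1, JUN, PSAP and RHOB. These genes were chosen after their values were seen. Black lines are group means, the open diamond is High WSS replicate 3, and the axes have equal length. At the dimmer JUN probe set the diamond lay at 8.32, and the other uniform arrays at 6.003 to 6.287.

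The called probe sets also differed from the rest in features that the fit did not use. Of the 598 that rose 55.7% had a gene name here, against 21.5% of the 381 that fell and 19.7% of all tested. Probe set names that carry the letter A made up 9.2% of those that rose, 53.5% of those that fell and 39.3% of all tested. The median signal over the arrays was 6.32 for those that rose, 5.96 for those that fell and 5.68 for all tested. Genes that rose spanned a median of 11.1 kb of the genome (quartiles 6.27 and 21) and genes that fell 46.4 kb (quartiles 29.3 and 103), against 21.8 kb (quartiles 8.57 and 52.7) for the 3970 named genes with a length in the RefSeq annotation. These shares and medians are descriptions, with no test.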

How the data were processed

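Cultured bovine aortic endothelial cells were profiled on 12 arrays, grouped by sample title. The deposited values are log2 signals that the authors made with RMA, per the submitters' processing notes, which also name limma; no version of either is stated there. No further scaling was applied. The deposited series matrix repeats 7194 of the 24128 probe sets with 0 differing cells. The 112 control probe sets were not tested. Symbols came from the platform annotation, and 4715 of 4726 Entrez numbers matched RefSeq (ARS-UCD2.0), with 0 symbols changed; 19290 tested probe sets were unnamed here. A model with 1 mean per group was fitted in limma 3.58.1 (R 4.3.3; 8 residual and 4.95 prior degrees of freedom), with the 4 groups weighted equally and Benjamini-Hochberg adjustment over 24016 probe sets. SE is the moderated standard error. Within-gene differences between probe sets were fitted in the same way and adjusted over their 749 pairs. Control differences were compared with exact two-sided permutation tests over arrays. The named genes were called genes whose 12 arrays separated (the 14 largest higher and 9 lower), up to 4 called members of each list with the largest differences (with none called, up to 2 with the smallest p), and NOS3, KLF4, THBD, EDN1, VCAM1, CCL2 and PECAM1. Genes named outside this rule, to spell out a count or a probe-set pair, were chosen after their values were seen. The members and the gene lists were chosen with earlier results of these data known. The alternatives were each array left out, 1 mean per arm, a replicate block, an intensity trend, dim probe sets left out, array centring, and a control difference as covariate. Genome sequence was not used here.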

Additional observations from a re-analysis of the deposited data

Results flagged for a closer look

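Among 164 sets of 6 arrays, each 1 gene or control on 1 side, 20 had an array whose gap to the rest passed Dixon's critical value of 0.625. Chance flags about 1 in 20 of sets that were not chosen by their values. Of the 72 genes here 63 were called in this comparison, and some controls were added after the data had been seen. That rate therefore cannot be applied to these sets. In 16 of the 20 the array was High WSS replicate 3.

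Among endothelial and cytoskeletal genes High WSS replicate 3 measured 9.997 for TIE1 (8.58 to 8.87 on the other 5 uniform arrays), 9.472 for EGFL7 (8.53 to 8.78), 9.205 for FLNA (8.67 to 8.76), 10.77 for CAPZB (9.93 to 10.22) and 11.819 for PFN1 (11.29 to 11.44). Among metabolic and degradative genes it measured 9.554 for CTSD (8.79 to 8.97), 10.245 for UQCRC1 (8.89 to 9.32) and 9.925 for PSMC4 (8.90 to 9.24). Among signalling and transcription genes it measured 11.518 for GNAS (9.62 to 9.87), 10.074 for CCND1 (7.08 to 8.16), 8.316 for the dimmer JUN probe set (6.003 to 6.287), 9.009 for the dimmer RHOB probe set (7.28 to 7.66) and 6.449 for ZNF292, below the 7.25 to 7.72 of the other 5. Its 3′ minus 5′ difference was 0.089 for GAPDH (0.594 to 0.703), 0.944 for cyclophilin (1.43 to 1.54) and 1.907 for dap (2.60 to 2.96).

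The other 4 lay elsewhere. LSM12 measured 8.586 on positive gradient replicate 2 (8.22 to 8.27 on the other gradient arrays), KLHL23 4.735 on negative gradient replicate 2 (5.23 to 5.40) and ACVR1 6.777 on positive gradient replicate 3 (7.22 to 7.42). The ACTB 3′ minus 5′ difference was 1.687 on baseline replicate 3 (1.01 to 1.25 on the other uniform arrays). No cause was tested.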

How the results depend on the processing

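Against 979 called probe sets (598 higher, 381 lower), 1 mean per arm gave 580 (396 and 184), of which 573 were shared, and leaving out single arrays gave 0 to 5322 (higher 0 to 2672, lower 0 to 2650). A replicate block gave 2815 (1436 and 1379), with all 979 among them. Whether the replicate numbers pair the samples was checked on 18 same-number pairs: their correlation was -0.0785 to 0.616, 17 were over 0.1, and 12 of 12 arrays correlated best with their own number, a hint from the data and not from the design. A mean-variance trend gave 904, leaving out dim probe sets 832 of 12008, and array centring 992 (528 higher, 464 lower). With a covariate (GAPDH, EF1A and, added later, dap) limma called 0 each time (0 higher, 0 lower). At an unadjusted p under 0.05 there were 366, 683 and 346. The 7-array fit of gradients and High WSS replicate 3, also added later, has 1 uniform array. Its differences are given below without calls.

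Of the 72 genes followed 63 were called. All 63 stayed called under the replicate block and without High WSS replicate 3, 10 were lost with 1 mean per arm, 2 on centring and 1 with the trend. All 63 were lost under each covariate, and when any 1 of 8 arrays was left out, but their differences kept their sign in all 756 fits without 1 array, at 80.8% to 124% of their size with all arrays. Leaving out single arrays turned the sign of CCL2 (-1.12 to 0.46), EDN1 (-0.0704 to 0.0639), KLF4 (-0.0415 to 0.341) and VCAM1 (-1.17 to 0.46), none of them called. The replicate block moved the adjusted p of VCAM1 to 0.0944 and of CCL2 to 0.113, against 0.868 and 0.905 without it, and called CCND1 and TAGLN (adjusted p = 0.0252 and 0.0318).

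With the 7-array fit these differences changed sign: TIE1 -0.147, EGFL7 -0.045, PECAM1 -0.205, NOS3 -0.198, P2RY2 -0.411, KLF4 -0.548, THBD 0.194, EDN1 0.367, VCAM1 2.22, CCL2 0.983, TAGLN2 -0.012, ITGA5 -0.10, TIMP1 -0.254, UQCRC1 -0.126, NDUFV1 -0.131, GNAS -0.058, CCND1 -0.655, THY1 0.175, CD14 1.26, ZBTB44 0.15 and the dimmer JUN probe set -0.226. With dap as covariate KLF4 was -0.237, THBD 0.035, EDN1 0.34, VCAM1 3.08, CCL2 3.20, NDUFV1 -0.011, CCND1 -0.364, TAGLN -0.353 and CD14 1.31. With GAPDH as covariate KLF4 was -0.0036, EDN1 0.217, VCAM1 1.5, CCL2 1.23, TAGLN -0.094 and CD14 0.462, and with EF1A EDN1 was 0.158, VCAM1 0.406, CCL2 0.257 and CD14 0.0020. The other GNAS probe set gave -0.291. The cause was not tested. A promoter motif search was not run.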

Other observations

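Labelled control transcripts added at hybridization gave no difference between flow types that passed the test. The signal of bioB, bioC, bioD and cre differed by -0.21, -0.08, 0.20 and 0.05 between gradient and uniform arrays (exact permutation tests, adjusted p = 0.416, 0.621, 0.416 and 0.585). The levels of the poly-A spikes, as opposed to their 3′ minus 5′ differences, differed by 0.23 for dap, -0.30 for lys, -0.09 for phe and 0.37 for thr (exact permutation tests, adjusted p = 0.479, 0.479, 0.742 and 0.479).

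Other lists of cell physiology had few calls. Of 28 NRF2 targets, 20 heat shock genes, 18 sterol genes, 18 interferon genes, 20 immediate early genes (brightest probe sets), 35 translation factors and 9 histones, 0 were called with all arrays by limma. Of all named genes 7.54% were called. Without High WSS replicate 3, 14% of named genes rose and 14.7% fell. Of the 20 immediate early genes 3 then rose, among them ZFP36, which speeds decay of inflammatory transcripts, and 1 fell, MYC. Of 18 interferon genes 1 then rose and 3 fell. Of 47 mitochondrial ribosomal genes 1 rose with all arrays (2.13%, against 5.88% of named genes), and without that array 5 rose and 2 fell.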
